A study of Mus musculus with 6 samples.

Results

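The CCAAT/enhancer-binding proteins (C/EBPs) were followed in bone marrow progenitors and their myeloid progeny. The 6 genes with a Cebp symbol were taken, Cebpa, Cebpb, Cebpd, Cebpe, Cebpg and Cebpz, which are 6 of the 32285 genes counted. They were taken by symbol, although the family was picked with earlier results of these data known. BALB/c mice were 10 weeks old when marrow was taken, and c-Kit+ cells were enriched on beads before single-cell RNA sequencing from transcript 3′ ends. The 3 groups were compared in 3 mice each. The non-tumor-bearing (NTB) mice were untreated, and the 2 tumor-bearing groups carried 4T1, a mouse mammary carcinoma line. Both of these groups were injected i.p. every day for 2 weeks, starting once tumors could be measured, either with DPBS (vehicle) or with 10 mg/kg brequinar (BRQ), an inhibitor of the pyrimidine synthesis enzyme DHODH. All tumor-bearing mice were injected and no NTB mouse was, so tumor and injection cannot be told apart. Each of 3 pools held 1 mouse of each group, marked with a hashtag antibody.

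C/EBP proteins bind DNA as dimers through a basic leucine zipper and set the order of the granulocytic program. C/EBPα, the product of Cebpa, is needed for granulocyte-monocyte progenitors (GMPs) to form and is regarded as the steady-state factor of granulopoiesis, whereas C/EBPβ (Cebpb) is the factor of emergency granulopoiesis, the increased output of neutrophils in infection or under cytokines such as G-CSF. C/EBPδ (Cebpd) is induced by inflammatory cytokines through STAT3, and C/EBPε (Cebpe) drives the genes of the secondary granules in maturing neutrophils. C/EBPγ (Cebpg) lacks a transactivation domain and acts as a partner in dimers, among them with ATF4. Cebpz carries the family name but encodes a nucleolar protein without the leucine zipper that takes part in ribosome assembly, and it was kept as a member by its symbol.

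In the GENCODE M21 annotation of GRCm38, Cebpa (ENSMUSG00000034957) lies at chr7:35119293-35121928 on the plus strand, and Cebpg (ENSMUSG00000056216) at chr7:35046422-35056573 on the minus strand, with 62719 bases between them. Cebpb (ENSMUSG00000056501) is a gene of 1 exon at chr2:167688915-167690418 on the plus strand. Cebpd (ENSMUSG00000071637) spans chr16:15887286-15891031 (plus), Cebpe (ENSMUSG00000052435) chr14:54710360-54712174 (minus) and Cebpz (ENSMUSG00000024081), with up to 16 exons, chr17:78919006-78937066 (minus). Each of these genes except Cebpe overlaps another annotated gene on the other strand (Gm45091, Tmem189, Spidr, Gm45095 and Cebpzos), and Cebpg overlaps Gm44836 and Gm45094 on its own strand. No source used here says whether strand was used in counting, so reads of overlapping genes may not be told apart.

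The promoters of Cebpa and Cebpb, the steady-state and the emergency factor, are shown because these 2 genes were set against each other in GMPs. Of the 6 genes, 3 had a promoter in the RefSeq table used (GRCm38.p6): Cebpa, Cebpb and Cebpg. The 250 bases before the start of Cebpa, at chr7:35119043-35119292, and of Cebpb, at chr2:167688665-167688914, both on the plus strand, are given 5′ to 3′. Capitals mark TATAAA, the TATA box, in Cebpa and TGACG, the core bound by CREB and ATF factors, or its complement CGTCA in Cebpb.
Cebpa: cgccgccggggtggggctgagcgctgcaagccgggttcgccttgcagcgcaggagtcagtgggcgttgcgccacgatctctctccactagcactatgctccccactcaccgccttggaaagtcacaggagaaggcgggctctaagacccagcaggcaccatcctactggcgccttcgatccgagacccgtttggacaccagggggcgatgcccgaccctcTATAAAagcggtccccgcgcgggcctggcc
Cebpb: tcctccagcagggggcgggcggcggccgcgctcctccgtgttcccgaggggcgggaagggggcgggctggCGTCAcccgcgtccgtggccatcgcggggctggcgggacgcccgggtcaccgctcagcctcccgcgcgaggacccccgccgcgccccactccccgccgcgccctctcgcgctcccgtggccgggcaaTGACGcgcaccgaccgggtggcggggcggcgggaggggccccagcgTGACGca
TATAAA begins 30 bases before the start of Cebpa and was found in 12.4% of the 32851 mouse promoters of this length. TGACG, read on both strands, begins 180, 53 and 7 bases before the start of Cebpb and was found in 17.8% of promoters, but not in those of Cebpa and Cebpg. The STAT motif TTCNNNGAA (7.0% of promoters) and the C/EBP motif TTGCGNAA (0.7%) were in none of these 3 windows.

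Hashtag singlets numbered 382 to 2780 per mouse, fewest in the vehicle mouse of pool 2, and 33.1% to 52.19% of the barcodes of a pool had no hashtag call. The calls of the study itself were not used here, and a second way of calling, by the ratio of the highest to the next tag, gave other numbers of cells. It assigned 1402 against 554 cells to the NTB mouse of pool 1, 647 against 1261 to the pool 3 vehicle mouse, and 905 against 2321 and 1034 against 2343 to the BRQ mice of pools 2 and 3. Between 38 and 48 cell barcodes were shared by a pair of pools. A cell counted as a GMP when ln(1 + its Ms4a3 UMIs per 10000) exceeded 3, and 3916 did so (88 to 1017 per mouse, with 998154 to 16074010 UMIs). The other cells were named from their clusters, as HSC/MPP-like (hematopoietic stem cells and multipotent progenitors), neutrophil-like or monocyte/MDP-like (monocytes and monocyte-dendritic progenitors). Although marrow was enriched for c-Kit, neutrophil-like cells had 0.119 to 1.18 Kit UMIs per 10000, against 2.01 to 3.28 in HSC/MPP-like cells. The BRQ mouse of pool 3 stood apart, with 30.63% of its GMPs in cluster 12, which held at most 4.96% of the GMPs of any other mouse.

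The levels of the members were followed from stem cells to neutrophils. Levels are UMIs of the gene per 10000 UMIs, as mean and SD over mice with at least 20 cells of the type, and they are given without a test, because the cell types come from clusters of the same cells. Since the libraries were made from transcript ends, levels of different genes may be set side by side without scaling for length. The member genes were left out of the clustering.

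Cebpa was low throughout. It was 0.26 ± 0.070 (SD, n = 8) in HSC/MPP-like cells, 0.38 ± 0.063 (n = 9) in GMPs and 0.51 ± 0.070 (n = 9) in monocyte/MDP-like cells. In the neutrophil-like clusters it was 0.082 ± 0.041 (n = 8) and 0.043 ± 0.037 (n = 7) in clusters 2 and 7, called immature (Ltf, lactoferrin, is among the leading genes of both), and 0.20 ± 0.11 (n = 7) and 0.17 ± 0.15 (n = 8) in clusters 10 and 4, called mature (Mmp9 is among the leading genes of cluster 10, and Il1b and Cxcr2 of cluster 4). B cell-like cells, which should lack Cebpa, had 0.23 ± 0.083 (n = 3) and erythroid-like cells 0.099 ± 0.059 (n = 6). The levels in neutrophil-like and HSC/MPP-like cells were therefore not separated from this background, the lowest GMP mouse (0.29) lay below the highest B cell-like one (0.32), and every neighbour in the order of Cebpa levels overlapped over mice.

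Cebpe, the factor of the secondary granules, peaked in the immature neutrophil-like clusters, where Cebpa was low. It was 6.55 ± 0.60 (n = 8) in cluster 2 and 6.51 ± 1.24 (n = 7) in cluster 7, and no other type reached the lowest mouse of either. GMPs held 3.47 ± 0.23 (n = 9), cluster 10 held 1.54 ± 0.77 and cluster 4 held 0.39 ± 0.24. The monocyte/MDP-like level of 0.46 ± 0.10 and the HSC/MPP-like level of 0.14 ± 0.074 lay at or below those of erythroid-like (0.54 ± 0.28) and B cell-like cells (0.74 ± 0.59). With each cell thinned to 1000 UMIs, 47.43% of cluster 2 cells, 41.12% of cluster 7 cells, 29.36% of GMPs and 2.86% of cluster 4 cells held a Cebpe UMI, and 2.86% of B cell-like cells did. Unthinned, these shares were 95.77%, 83.47%, 95.74%, 4.75% and 11.89%, at median depths of 8220, 5139, 13798, 1365 and 3322 UMIs. Of cluster 4 cells 84.57% reached 1000 UMIs and entered the thinned share, against at least 97.9% of the others.

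As a share of all UMIs, Cebpb and Cebpd, the inducible members, peaked later than Cebpe. Cebpb was 7.47 ± 1.81 (n = 8) in cluster 4 and 3.34 ± 0.94 (n = 7) in cluster 10, and these ranges did not overlap. In GMPs it was 1.86 ± 0.23 (n = 9), in cluster 2 it was 1.71 ± 0.38, in monocyte/MDP-like cells 1.65 ± 0.20 and in cluster 7 it was 1.08 ± 0.39, and these neighbours overlapped. HSC/MPP-like cells had 0.43 ± 0.12, within the range of erythroid-like cells (0.45 ± 0.19). Cebpd was 6.25 ± 1.37 in cluster 4, 3.53 ± 0.80 in cluster 10, 2.41 ± 0.58 in cluster 7 and 2.16 ± 0.26 in cluster 2, each overlapping the next. GMPs held 1.25 ± 0.11 and monocyte/MDP-like cells 0.64 ± 0.14, without overlap between them, and HSC/MPP-like cells 0.14 ± 0.064, below the erythroid-like 0.36 ± 0.12. Thinned to 1000 UMIs, 50.59% of cluster 4 cells held a Cebpb UMI and 47.53% a Cebpd UMI, against 18.02% and 11.42% of GMPs and 4.29% and 2.14% of B cell-like cells. Unthinned, these shares were higher in GMPs, with 62.14% and 59.47% in cluster 4, 89.22% and 75.61% in GMPs and 9.79% and 9.09% in B cell-like cells. Median depths of these cells were 1365, 13798 and 3322 UMIs.

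Cebpg had its lowest mean level in GMPs, and Cebpz its lowest levels in neutrophil-like cells. Cebpg was 0.62 ± 0.064 (n = 8) in HSC/MPP-like cells and 0.56 ± 0.087 (n = 9) in monocyte/MDP-like cells, and had its lowest mean in GMPs, at 0.20 ± 0.050 (n = 9), where the range over mice overlapped that of cluster 2 and of the other cells of GMP-like clusters. In the neutrophil-like clusters it was 0.24 ± 0.080 in cluster 2, 0.35 ± 0.072 in cluster 7, 0.49 ± 0.17 in cluster 10 and 0.44 ± 0.14 in cluster 4, each overlapping the next in order of level. Cebpz was 1.25 ± 0.17 in HSC/MPP-like cells, 1.18 ± 0.16 in monocyte/MDP-like cells, 0.94 ± 0.14 in GMPs and 0.18 to 0.37 in the 4 neutrophil-like clusters. B cell-like cells held 0.84 ± 0.038 Cebpz and erythroid-like cells 1.29 ± 0.18, so this gene was found at like levels outside the myeloid cells.

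**Figure D1:**
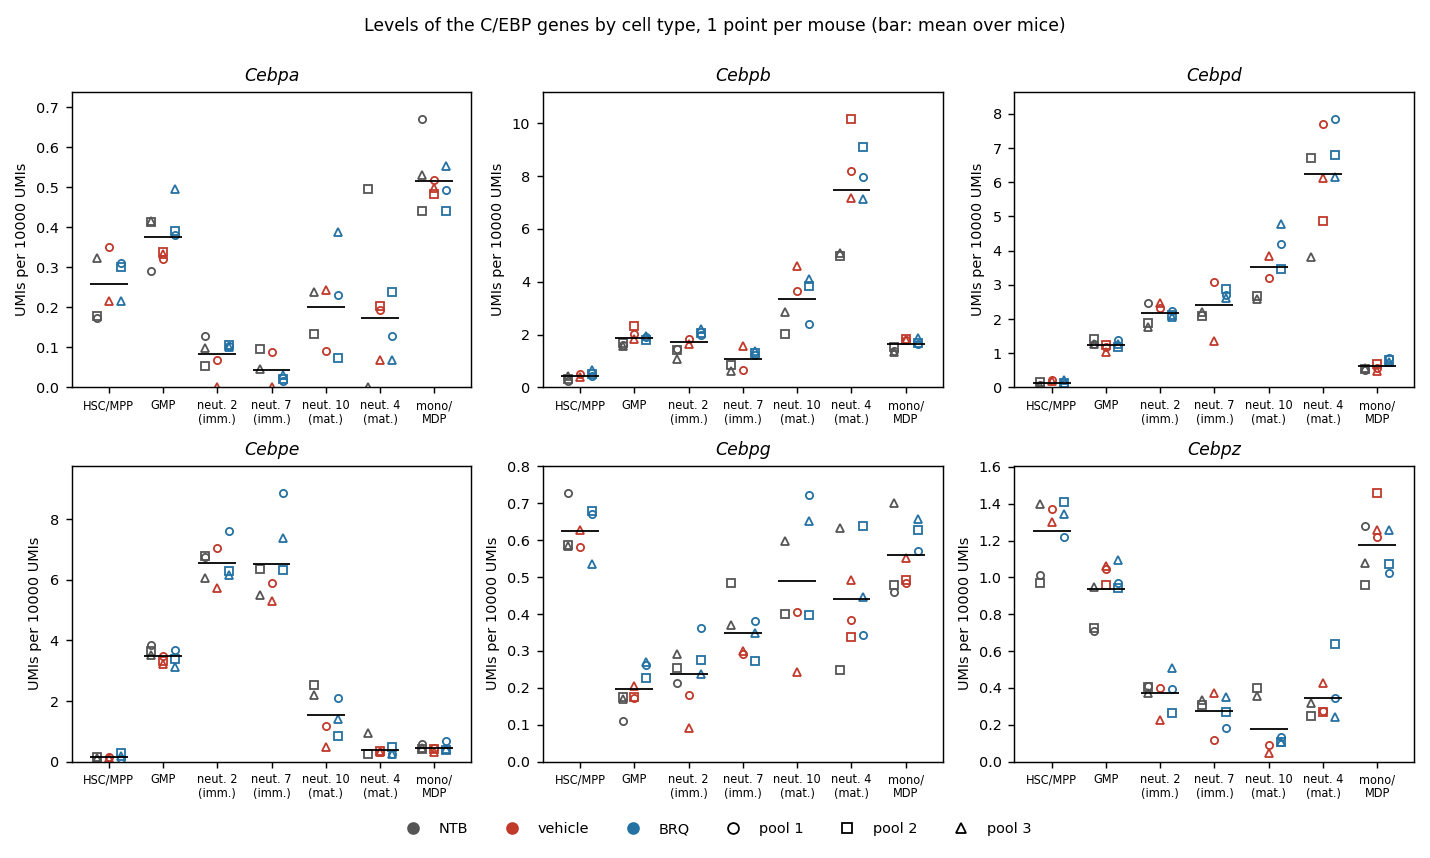
Levels of the 6 C/EBP genes by cell type, with cell types on the x axis (neut., neutrophil-like cluster, imm., immature, mat., mature) and UMIs per 10000 UMIs on the y axis; each point is 1 mouse with at least 20 cells, colored by group and shaped by pool, and the bar is the mean over mice. Cebpe peaks in clusters 2 and 7 (6.55 and 6.51), while Cebpb and Cebpd are highest in cluster 4 (7.47 and 6.25).

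The genes whose levels went most closely with each member were ranked by Pearson's r of log2 CPM over 86 sums of 1 mouse and 1 of 13 cell types. These points share mice, libraries and cell type composition, so r is a description. Cebpd went with Hp (haptoglobin, r = 0.97), Msrb1 (0.953) and Prdx5 (0.929), and Cebpb with Aldoa (aldolase A, 0.909), Msrb1 (0.904) and Gda (0.883). Cebpe went with Dstn (destrin, 0.925), Serpinb1a (an inhibitor of neutrophil serine proteases, 0.914) and Hmgn2 (0.902), and Cebpz with Set, Nop58 and Npm1 (0.928, 0.928 and 0.923), of which the latter 2 encode nucleolar proteins. For Cebpa the highest were Zfp330 (0.692), Calr (0.682) and Bckdha (0.678), and for Cebpg Map4k4 (0.751), Ube2r2 (0.733) and Pum2 (0.733). Between members r was highest for Cebpb and Cebpd (0.841) and lowest for Cebpd and Cebpz (-0.714).

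In GMPs, Cebpb and Cebpz were higher in vehicle-treated tumor-bearing mice than in NTB mice, and Cebpb was lower again in BRQ-treated mice, whereas no comparison of Cebpa, Cebpd, Cebpe or Cebpg passed the test at the settings used throughout. Values are CPM of the UMIs summed per mouse, in the order of pools 1, 2 and 3. Differences are log2 fold changes with their SE from edgeR's quasi-likelihood test on all genes, called at a Benjamini-Hochberg adjusted p under 0.05. The comparisons of vehicle with NTB and of BRQ with vehicle share the vehicle mice, and those with NTB share the NTB mice.

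Cebpb was at 173, 174 and 156 CPM in NTB mice, 219, 241 and 189.9 CPM in vehicle mice and 183, 171 and 170.3 CPM in BRQ mice. The lowest vehicle mouse lay above the highest NTB and the highest BRQ mouse, and the latter groups overlapped. The log2 fold change was 0.36 ± 0.097 for vehicle against NTB (adjusted p = 0.0174), -0.30 ± 0.086 for BRQ against vehicle (adjusted p = 0.0233) and 0.065 ± 0.095 for BRQ against NTB (adjusted p = 0.761). The call against NTB was lost when the pool 3 NTB mouse (0.29, adjusted p = 0.145), the pool 1 vehicle mouse (0.34, 0.0726) or the pool 2 vehicle mouse (0.30, 0.0762) was left out. That of BRQ against vehicle was lost when the vehicle mouse of pool 1 (-0.28, 0.109) or 2 (-0.24, 0.126) or the pool 2 BRQ mouse (-0.28, 0.0654) was left out, and it passed when the pool 3 BRQ mouse was (-0.26, 0.0479). It was also lost with mice assigned by tag ratios (-0.23, 0.0916), over all cells of GMP-like clusters (-0.20, 0.146), with an Ms4a3 limit of 2.5 (-0.28, 0.0505) and with cells thinned to 2000 UMIs (-0.37, 0.115).

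Cebpz was at 77.4, 74.7 and 94.4 CPM in NTB mice, 113, 99.7 and 109.5 CPM in vehicle mice and 92.4, 89.1 and 94.9 CPM in BRQ mice. Again each vehicle mouse lay above each mouse of the other groups. It rose by 0.38 ± 0.10 on the log2 scale in vehicle against NTB mice (adjusted p = 0.0188), and the difference of BRQ from vehicle was -0.24 ± 0.086 (adjusted p = 0.0717). The latter passed with the pool as a block (-0.23, adjusted p = 0.0186), with tag ratios (-0.29, 0.0324), over all cells of GMP-like clusters (-0.29, 0.0113) and with an Ms4a3 limit of 2.5 (-0.27, 0.0171). The rise lost its call when the pool 1 (0.35, 0.0552) or pool 2 NTB mouse (0.31, 0.128) or the pool 1 vehicle mouse (0.34, 0.0919) was left out.

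Thus 2 of 6 members were called in GMPs for vehicle against NTB, beside 11.3% of the 10331 genes tested, and 1 of 6 for BRQ against vehicle, beside 13.4%. For BRQ against NTB none was called by edgeR, beside 6.01%, and 2 members had an unadjusted p under 0.05. The median log2 fold change of the 6 members was 0.076, -0.10 and 0.020 in these comparisons, beside -0.014, 0.001 and -0.003 over all genes tested. 

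GMPs also differed between groups in depth and in makeup. The median number of UMIs per GMP was 10828.5 to 11581 in NTB mice, 14737 to 17966 in vehicle mice and 12168.5 to 15795 in BRQ mice. With each cell thinned to 2000 UMIs, the difference of vehicle from NTB was 0.41 (adjusted p = 0.251) for Cebpb and 0.14 (adjusted p = 0.823) for Cebpz. Cluster 1 held 16.95% to 22.22% of the GMPs of NTB mice, 36.68% to 40.61% of those of vehicle mice and 25.88% to 38.34% of those of BRQ mice. In a comparison added after these shares were seen, GMPs of cluster 1 alone had a Cebpb difference of 0.67 for vehicle against NTB (adjusted p = 0.0249) and of -0.32 for BRQ against vehicle (0.0343), and GMPs of cluster 0 alone had 0.28 (0.167) and -0.14 (0.488). For Cebpz the differences of vehicle from NTB were 0.25 (0.549) in cluster 1 and 0.09 (0.773) in cluster 0. Neutrophil markers summed to 472 to 507 UMIs per 10000 in GMPs of NTB mice, 340.1 to 378 in vehicle mice and 269 to 382 in BRQ mice, and Kit to 0.591 to 0.82, 0.385 to 0.427 and 0.685 to 0.807. Their part in the differences was not tested.

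**Figure D2:**
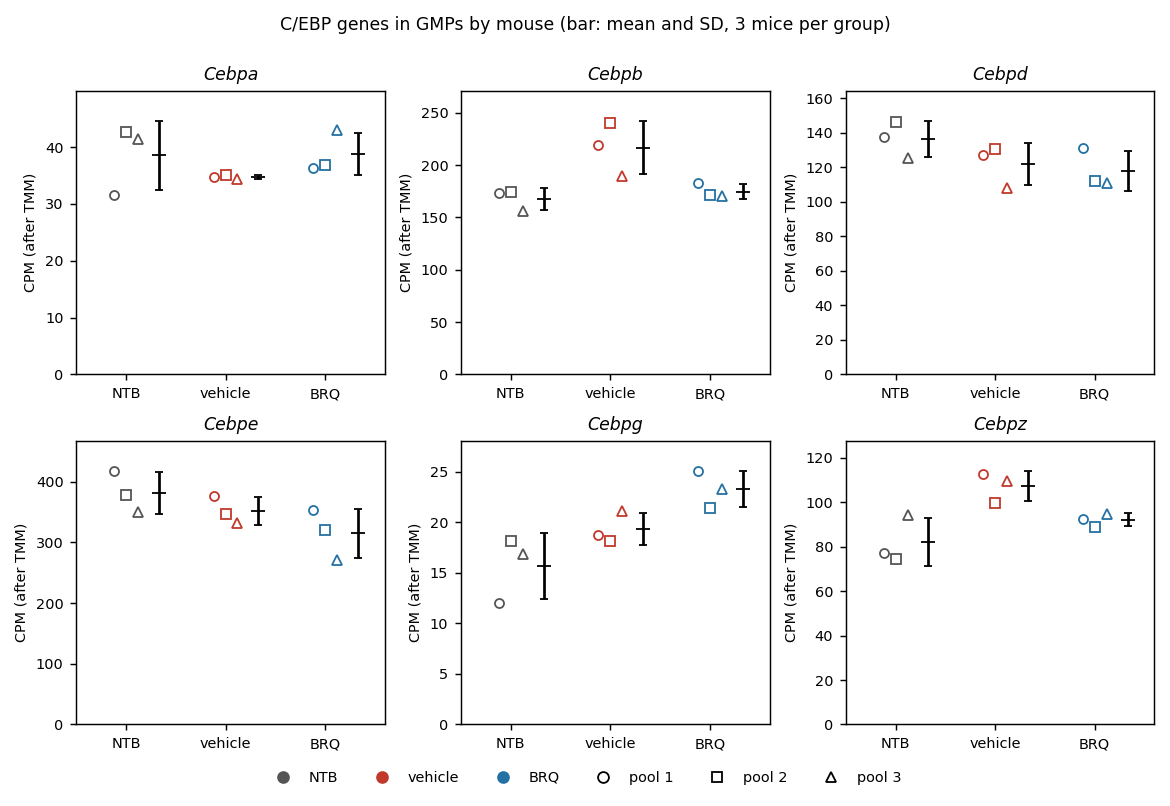
The 6 C/EBP genes in GMPs, with the groups on the x axis and CPM after TMM scaling on the y axis; each point is 1 mouse, shaped by pool, and the bar gives the mean and SD of 3 mice. All 3 vehicle mice lie above the NTB and BRQ mice for Cebpb (189.9 CPM and more) and Cebpz (99.7 CPM and more).

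The steady-state factor Cebpa was at 31.6, 42.7 and 41.4 CPM in GMPs of NTB mice, 34.7, 35.1 and 34.4 CPM in vehicle mice and 36.4, 36.9 and 43.1 CPM in BRQ mice. The vehicle mice were within the range of the NTB mice and below every BRQ mouse. The log2 fold change of vehicle against NTB was -0.19 ± 0.14 (adjusted p = 0.409) and that of BRQ against vehicle 0.17 ± 0.10 (adjusted p = 0.33). These values rest on 29 to 541 Cebpa UMIs per mouse. Over all cells of GMP-like clusters the difference of vehicle from NTB was called (-0.28, adjusted p = 0.0352). It had opposite signs in the clusters, with -0.56 in GMPs of cluster 0 (adjusted p = 0.0565) and 0.82 in those of cluster 1 (0.242), where the NTB mice held 10 and 7 Cebpa UMIs.

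Cebpe, the most abundant member in GMPs, was at 418, 378 and 349 CPM in NTB mice, 377, 347 and 332 CPM in vehicle mice and 353, 320.1 and 271 CPM in BRQ mice. The groups overlapped, but within each pool the NTB mouse was highest and the BRQ mouse lowest. The difference of BRQ from NTB was -0.27 ± 0.099 (adjusted p = 0.109), and with the pool as a block -0.28 (adjusted p = 0.00347). It also passed with an Ms4a3 limit of 2.5 (adjusted p = 0.0332) and when the pool 1 BRQ mouse was left out (0.0483). Cebpd was at 137, 146 and 125 CPM, 127, 130.4 and 108 CPM, and 131, 112 and 111 CPM in the NTB, vehicle and BRQ mice, with overlap in every comparison and adjusted p of 0.268 to 0.858. Cebpg, the partner of ATF4, was at 11.99, 18.2 and 16.8 CPM in NTB mice, 18.7, 18.2 and 21.2 CPM in vehicle mice and 25.04, 21.4 and 23.3 CPM in BRQ mice. All BRQ mice lay above all other mice, with a difference from NTB of 0.52 ± 0.17 (adjusted p = 0.0712) and, with the pool as a block, of 0.52 (adjusted p = 0.0463). It passed as well when the pool 2 BRQ mouse was left out (adjusted p = 0.0499).

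The balance of emergency and steady-state factor was taken as the ratio of summed Cebpb to Cebpa UMIs in the GMPs of each mouse. It was 5.48, 4.09 and 3.77 in NTB mice, 6.31, 6.86 and 5.53 in vehicle mice and 5.01, 4.64 and 3.95 in BRQ mice. Every vehicle mouse was above every other mouse. The log2 ratio was 2.63 ± 0.16 (SD, n = 3) in vehicle mice, 2.13 ± 0.29 in NTB mice and 2.17 ± 0.18 in BRQ mice. The difference was 0.50 for vehicle against NTB (two-sided exact permutation p = 0.1, adjusted over 6 tests 0.3) and -0.46 for BRQ against vehicle (exact p = 0.1, adjusted 0.3), where 0.1 is the smallest p that 3 against 3 mice allow. Between BRQ and NTB mice it was 0.041 (exact p = 0.9, adjusted 1.0). The ratio of Cebpe to Cebpa was 13.21, 8.87 and 8.44 in NTB mice, 10.86, 9.89 and 9.67 in vehicle mice and 9.68, 8.67 and 6.3 in BRQ mice. Its groups overlapped, with exact p of 0.2 to 1.0 and adjusted p of 0.4 to 1.0. Within each pool the BRQ mouse had the lowest ratio of Cebpe to Cebpa. In a comparison within pools, added after these values were seen, the mean log2 difference of BRQ was -0.325 ± 0.254 (SD, n = 3 pools) from vehicle and -0.301 ± 0.233 from NTB, each with a two-sided exact permutation p of 0.25, the smallest that 3 pools allow. The ratio of Cebpb to Cebpa was also taken within each GMP cluster, a comparison added after the cluster shares were seen. In cluster 0 the log2 difference of vehicle from NTB was 0.716 (exact p = 0.2) and in cluster 1 it was -0.118 (exact p = 0.5, with 2 NTB mice). That of BRQ from vehicle was -0.313 (exact p = 0.3) in cluster 0 and -0.511 (exact p = 0.1) in cluster 1. The part of the change in cluster shares in the ratio over all GMPs was not tested.

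**Figure D3:**
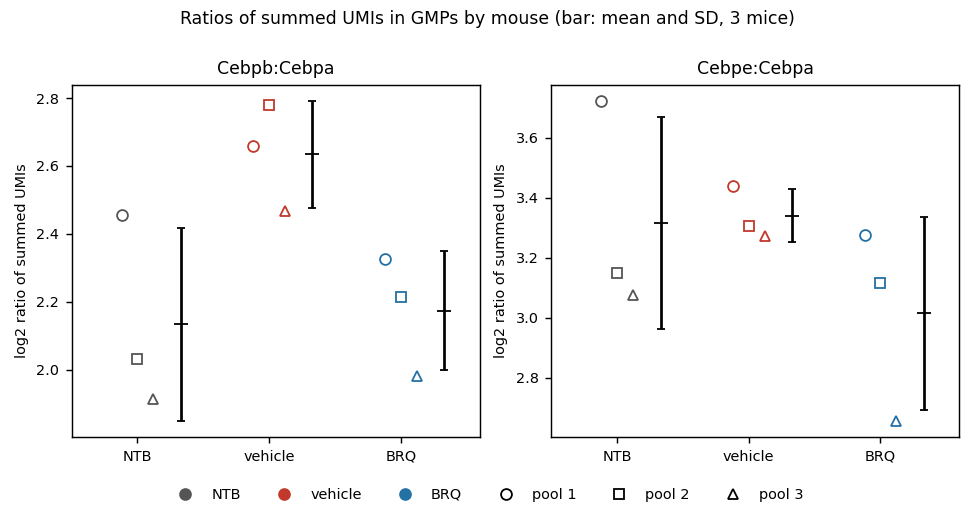
Log2 ratio of summed Cebpb to Cebpa UMIs (left) and Cebpe to Cebpa UMIs (right) in GMPs on the y axis, by group on the x axis; each point is 1 mouse, shaped by pool, and the bar gives the mean and SD of 3 mice. For Cebpb to Cebpa the vehicle mice (mean 2.63) lie above all NTB and BRQ mice (means 2.13 and 2.17), and for Cebpe to Cebpa the groups overlap.

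In neutrophil-like cells, Cebpb and Cebpd were higher in vehicle mice than in NTB mice and Cebpb was also higher in BRQ mice than in NTB mice. Cebpb was at 166, 145 and 106 CPM in NTB mice, 307, 574 and 489.6 CPM in vehicle mice and 238, 257 and 354 CPM in BRQ mice. Both tumor-bearing groups lay above the NTB mice, and they overlapped each other. The log2 fold change was 1.72 ± 0.26 for vehicle against NTB (adjusted p = 0.00143), 1.04 ± 0.26 for BRQ against NTB (adjusted p = 0.0294) and -0.68 ± 0.25 for BRQ against vehicle (adjusted p = 0.496). The first call passed without any 1 of the 9 mice (1.53 to 1.95) and not at a finer clustering (Leiden resolution 1.2), with 1.23 (adjusted p = 0.0548). At that resolution the mature cluster led by Il1b had no name and was left out, and the pool 3 vehicle mouse had 126 neutrophil-like cells there against 460 at the resolution used throughout. The call for BRQ against NTB was lost without any 1 of the NTB mice of pools 1, 2 and 3 (1.17, 1.08 and 0.86, adjusted p = 0.059, 0.102 and 0.182) or the BRQ mouse of pool 3 (0.86, 0.054). This call was also lost at Leiden resolution 1.2 (0.83, adjusted p = 0.108).

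Cebpd was at 265, 214 and 185 CPM in NTB mice, 363, 327 and 438 CPM in vehicle mice and 312, 277 and 384 CPM in BRQ mice. The NTB mice were below all tumor-bearing mice. It rose by 0.78 ± 0.20 on the log2 scale in vehicle mice (adjusted p = 0.0188), and the difference of BRQ from NTB was 0.56 ± 0.20 (adjusted p = 0.108, with the pool as a block 0.0381). The call was lost when the pool 2 (0.75, 0.0796) or pool 3 NTB mouse (0.66, 0.104) or the pool 3 vehicle mouse (0.66, 0.0986) was left out, and at the finer clustering (0.44, 0.339).

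Cebpe was at 704, 691 and 581 CPM in NTB mice, 529.7, 245 and 193 CPM in vehicle mice and 652, 518 and 313 CPM in BRQ mice. Every vehicle mouse lay below every NTB mouse, with a difference of -1.01 ± 0.35 (adjusted p = 0.063). With the pool as a block it was -1.14 (adjusted p = 0.000907), and it also passed when the pool 1 vehicle (adjusted p = 0.00144) or pool 3 BRQ mouse (0.0169) was left out, without the filter on low counts (5.53e-05), with DESeq2 (0.0449), tag ratios (0.0411) and the limits of 500 and 7500 read as UMIs (1.66e-05). With these UMI limits the differences of BRQ from NTB also passed for Cebpd (adjusted p = 0.000128), Cebpe (0.0128) and Cebpz (0.0363), and that of BRQ from vehicle for Cebpb (0.0444). Cebpz was at 42.7, 41.0 and 36.4 CPM in NTB mice, 31.4, 27.5 and 30.8 CPM in vehicle mice and 29.8, 26.9 and 24.4 CPM in BRQ mice. The NTB mice were highest, with adjusted p of 0.177 for vehicle and 0.0803 for BRQ (with the pool as a block 0.0432). Cebpa, at 7.39 to 18.9 CPM on 4 to 61 UMIs per mouse, and Cebpg, at 26.9 to 44.5 CPM, had adjusted p of 0.337 and above.

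Of the 6 members, 2 were called for vehicle against NTB, beside 16.7% of the 8612 genes tested in neutrophil-like cells, and 1 for BRQ against NTB, beside 7.08%. For BRQ against vehicle edgeR called none, beside 0.0348%, and 1 member had an unadjusted p under 0.05. The median of the 6 members was -0.054, 0.33 and 0.11 for vehicle against NTB, BRQ against NTB and BRQ against vehicle, beside -0.062, -0.026 and 0.012 over all genes. The stage of the neutrophil-like cells moved with the groups: 88.89%, 87.99% and 91.3% of them were in the immature clusters in NTB mice, 33.41%, 13.95% and 8.91% in vehicle mice and 45.19%, 50.83% and 16.74% in BRQ mice. Their median UMIs per cell were 5988 to 6651 in NTB, 1581 to 2100 in vehicle and 2650.5 to 4226 in BRQ mice. With each cell thinned to 2000 UMIs, vehicle against NTB was 1.99 for Cebpb (adjusted p = 0.0013), 0.89 for Cebpd (0.0357) and -1.13 for Cebpe (0.0604), and the Cebpb difference of BRQ from NTB was 1.15 (0.0272). This matched the depth per cell but left out cells under 2000 UMIs, which were more of those of vehicle mice, where 245 of 461, 45 of 129 and 180 of 460 neutrophil-like cells were kept, than of NTB mice, with 100 of 108, 390 of 433 and 898 of 965. The thinned sums still ran from 90000 to 1796000 UMIs per mouse. Markers of other types also moved in all neutrophil-like cells. Erythroid markers summed to 0.407 to 0.729 UMIs per 10000 in NTB, 1.411 to 2.745 in vehicle and 0.647 to 1.845 in BRQ mice. Those of basophils, mast cells and eosinophils summed to 0.963 to 1.322, 2.178 to 4.601 and 2.214 to 4.129. The part of depth, of these markers and of the mix of cells was not tested. Values within stages follow.

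Within the immature clusters, Cebpb was at 151, 133 and 95.1 CPM in NTB mice, 168 and 176 CPM in the vehicle mice of pools 1 and 3, and 169.5, 181 and 162 CPM in BRQ mice. The vehicle mouse of pool 2 had under 20 such cells and was left out. The tumor-bearing mice were above the NTB mice, with a log2 fold change of 0.50 ± 0.17 for vehicle (adjusted p = 0.131) and 0.51 ± 0.14 for BRQ (adjusted p = 0.0245). These clusters differed between groups in other markers too: GMP markers summed to 35.8 to 69.8 UMIs per 10000 in NTB, 79.4 to 95.2 in vehicle and 82.0 to 101.1 in BRQ mice, and neutrophil markers to 3814 to 3927, 3496 to 3793 and 2412 to 3093. Their part in the Cebpb values was not tested. Cebpe was at 707, 687 and 568 CPM, 727 and 608 CPM, and 786, 618 and 616 CPM in the NTB, vehicle and BRQ mice. These groups overlapped, and the difference of vehicle from NTB was 0.050 ± 0.15 (adjusted p = 0.93). Cebpd was at 175 to 257 CPM in NTB mice and 212 to 267 CPM in the tumor-bearing mice, with adjusted p of 0.379 and above. For vehicle against NTB no member was called by edgeR, beside 1.76% of 8024 genes, with 1 member at an unadjusted p under 0.05. For BRQ against vehicle none was called, beside 0.174%, with 0 members at an unadjusted p under 0.05, and for BRQ against NTB 1 was called, beside 6.37%.

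Within the mature clusters the NTB mouse of pool 1 had under 20 cells and was left out. Cebpb was at 335 and 329 CPM in NTB mice, 689, 855 and 640.4 CPM in vehicle mice and 512, 590.2 and 506 CPM in BRQ mice. The 3 groups did not overlap. It rose by 1.11 ± 0.20 in vehicle against NTB mice (adjusted p = 0.000177), and the difference of BRQ from vehicle was -0.43 ± 0.14 (adjusted p = 0.0625). The difference of BRQ from NTB was 0.69 ± 0.20 and was not called here (adjusted p = 0.139). Cebpe was at 191 and 206 CPM in NTB mice, 69.1, 46.5 and 34.8 CPM in vehicle mice and 139, 77.8 and 105 CPM in BRQ mice, again without overlap. It fell by 2.02 ± 0.31 in vehicle against NTB mice (adjusted p = 2.05e-05) and rose by 1.15 ± 0.23 in BRQ against vehicle mice (adjusted p = 0.00155), on 10 to 98 Cebpe UMIs per mouse. Cebpd was at 449 and 283 CPM in NTB mice, 640.3, 413 and 547 CPM in vehicle mice and 617, 486 and 523 CPM in BRQ mice, which overlapped between NTB and vehicle (0.63 ± 0.22, adjusted p = 0.0717).

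In the mature clusters 2 of 6 members were called for vehicle against NTB, beside 6.43% of 5241 genes, and 1 for BRQ against vehicle, beside 5.8%. For BRQ against NTB edgeR called none, beside 0.324%, with 3 members at an unadjusted p under 0.05. These clusters were themselves mixed: cluster 10 made up 42.31% and 72.62% of the mature cells of the NTB mice tested, 14.08% to 19.87% of those of vehicle mice and 34.7% to 52.07% of those of BRQ mice. Cebpb was higher in cluster 4 than in cluster 10, as given above. In cluster 4 alone it was at 4.96 and 5.07 UMIs per 10000 in NTB mice, 8.18, 10.2 and 7.15 in vehicle mice and 7.95, 9.10 and 7.14 in BRQ mice, and in cluster 10 at 2.01 and 2.87 in NTB mice, 3.64 and 4.58 in the vehicle mice of pools 1 and 3 and 2.40, 3.83 and 4.09 in BRQ mice. The NTB mice were lowest in cluster 4 and overlapped the BRQ mice in cluster 10, which was not tested. In cluster 10 alone, Cebpe was at 2.54 and 2.21 UMIs per 10000 in NTB mice, 1.17 and 0.49 in the vehicle mice of pools 1 and 3 and 2.10, 0.83 and 1.41 in BRQ mice, which was not tested. In cluster 4 it was at 0.24 to 0.95 in the 8 mice with at least 20 such cells, at the level of the background. Markers of other types also moved in the mature clusters: erythroid markers summed to 1.22 to 1.81 UMIs per 10000 in NTB, 3.73 to 3.96 in vehicle and 1.72 to 2.66 in BRQ mice, and Kit to 0.906 to 1.13, 1.07 to 1.99 and 0.05 to 0.46. The part of this mix and of these markers in the Cebpb and Cebpe differences was not tested.

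**Figure D4:**
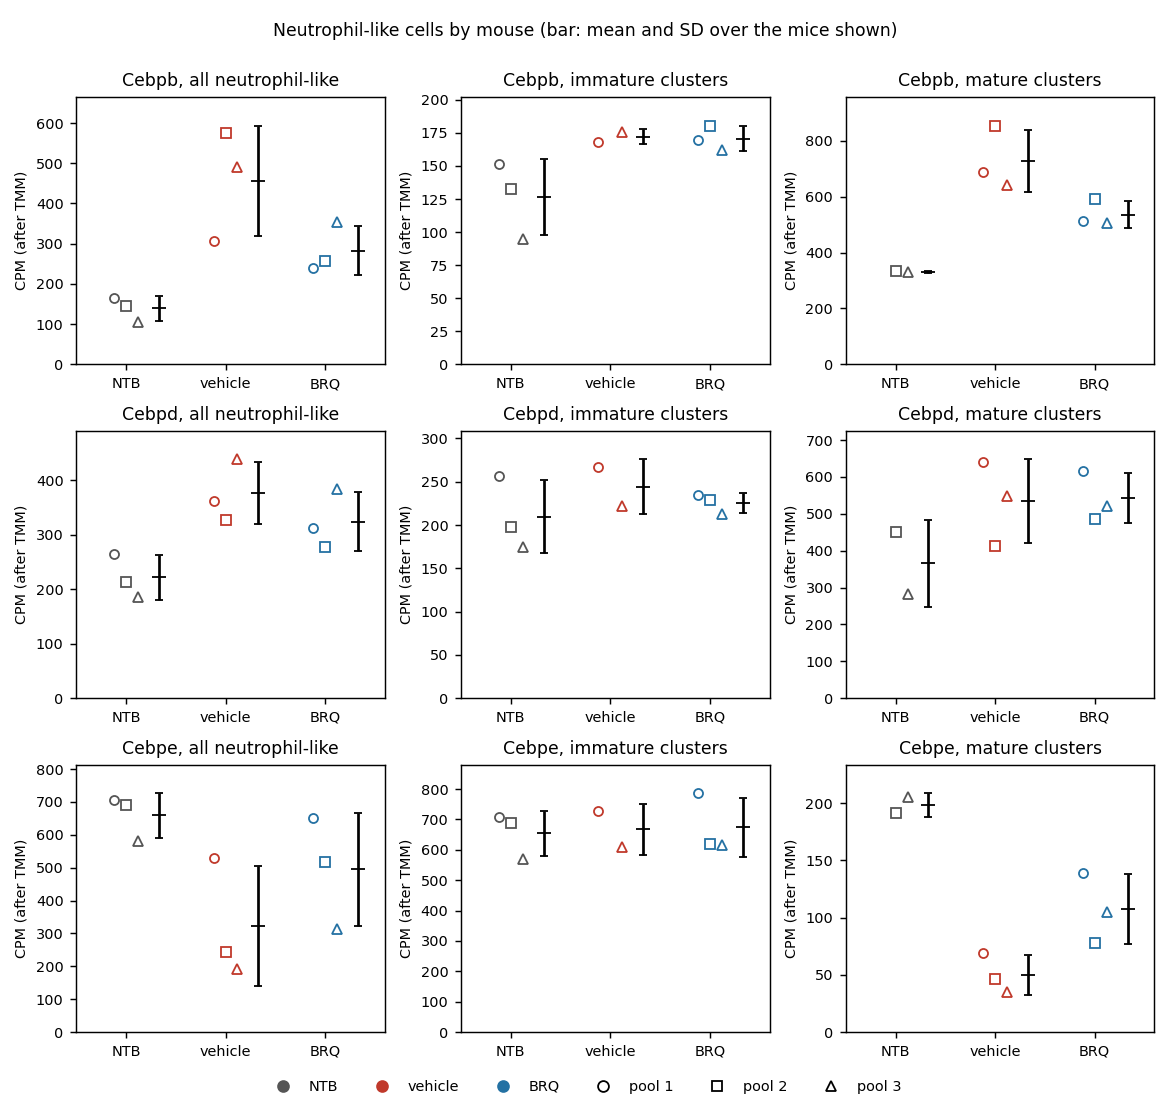
Cebpb, Cebpd and Cebpe in all neutrophil-like cells (left) and in their immature (middle) and mature (right) clusters, with the groups on the x axis and CPM after TMM scaling on the y axis; each point is 1 mouse with at least 20 cells, shaped by pool, and the bar gives the mean and SD. Cebpe overlaps between groups in the immature clusters (568 to 786 CPM), and in the mature clusters the vehicle mice (34.8 to 69.1 CPM) lie below the BRQ and NTB mice.

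In monocyte/MDP-like cells, Cebpb was at 144, 159 and 133 CPM in NTB mice, 191, 192 and 177 CPM in vehicle mice and 161, 166 and 172 CPM in BRQ mice. The 3 groups did not overlap, with vehicle highest and NTB lowest. It rose by 0.36 ± 0.099 in vehicle against NTB mice (adjusted p = 0.048), and the differences of BRQ were -0.17 ± 0.088 from vehicle (adjusted p = 0.326) and 0.19 ± 0.095 from NTB (adjusted p = 0.366). The call was lost, with adjusted p of 0.0512 to 0.316 and differences of 0.28 to 0.44, without any 1 mouse except the vehicle and the BRQ mouse of pool 3, and with RLE scaling (0.35, 0.0541), tag ratios (0.28, 0.0971) or Leiden resolution 1.2 (0.32, 0.0923).

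Cebpd was at 54.1, 56.5 and 55.9 CPM in NTB mice, 59.3, 71.8 and 48.5 CPM in vehicle mice and 84.0, 77.9 and 68.6 CPM in BRQ mice. The BRQ mice were above the NTB mice and overlapped the vehicle mice at that of pool 2. It rose by 0.40 ± 0.12 in BRQ against vehicle mice (adjusted p = 0.0416), and the difference from NTB was 0.46 ± 0.13 (adjusted p = 0.0504, with the pool as a block 0.0195). The latter also passed without the filter on low counts (adjusted p = 0.00728) and when the pool 3 vehicle (0.0368) or pool 3 BRQ mouse (0.0312) was left out. The call against vehicle was lost, with adjusted p of 0.0569 to 0.213 and differences of 0.29 to 0.44, when any 1 of these was left out: the NTB mouse of pool 1 or 2, the vehicle mouse of pool 1 or 3, or the BRQ mouse of pool 1 or 2, and with DESeq2 (0.39, 0.098) or tag ratios (0.31, 0.107). Markers of other types moved with it: GMP markers summed to 194.2 to 240.5 UMIs per 10000 in NTB, 209 to 239 in vehicle and 239.5 to 265 in BRQ mice, and HSC/MPP markers to 2.46 to 2.87, 2.01 to 2.27 and 3.12 to 3.35. Their part in the Cebpd difference was not tested. Cebpz was at 135, 99.0 and 108 CPM in NTB mice, 129.9, 153 and 125 CPM in vehicle mice and 100.3, 105 and 115 CPM in BRQ mice. The vehicle mice were above the BRQ mice (-0.32 ± 0.10, adjusted p = 0.0687, with the pool as a block 0.0371 and at Leiden resolution 1.2 0.0436). Cebpa (43.1 to 70.7 CPM), Cebpe (31.5 to 65.1 CPM, at the level of the background given above) and Cebpg (48.6 to 69.7 CPM) had adjusted p of 0.469 and above.

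Of the 6 members, 1 was called for vehicle against NTB in monocyte/MDP-like cells, beside 2.87% of 9452 genes, and 1 for BRQ against vehicle, beside 4.87%. For BRQ against NTB edgeR called none, beside 2.86%, with 1 member at an unadjusted p under 0.05. Median UMIs per cell were 13732 to 17462 in NTB, 21234.5 to 23944 in vehicle and 15240 to 18778.5 in BRQ mice. With cells thinned to 2000 UMIs, the Cebpb difference of vehicle from NTB was 0.30 (adjusted p = 0.695) and the Cebpd difference of BRQ from vehicle 0.63 (adjusted p = 0.318).

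In HSC/MPP-like cells no member passed the test in any comparison at the settings used throughout. The vehicle mouse of pool 2 had 10 such cells and was left out. Cebpd was at 8.23, 15.3 and 2.78 CPM in NTB mice, on 5, 11 and 4 UMIs, at 20.8 and 17.4 CPM in the vehicle mice of pools 1 and 3, on 41 and 8 UMIs, and at 11.2, 11.98 and 21.6 CPM in BRQ mice. The vehicle mice lay above the NTB mice, with a difference of 1.42 ± 0.45 (adjusted p = 0.136). It passed without the filter on low counts (1.45, adjusted p = 0.0359) and when the pool 2 NTB mouse was left out (2.14, 0.0347). The level of Cebpd in HSC/MPP-like cells was below that of erythroid-like cells. Cebpb was at 26.3, 30.6 and 43.7 CPM in NTB mice, 51.6 and 41.3 CPM in vehicle mice and 43.0, 49.6 and 62.4 CPM in BRQ mice, which overlapped (adjusted p of 0.496 and 0.259 against NTB). Cebpg (52.2 to 75.7 CPM) and Cebpz (98.6 to 141 CPM) overlapped between all groups. The shares of all 9996 genes called by edgeR were 1.06% for vehicle against NTB, 0.02% for BRQ against vehicle and 0.86% for BRQ against NTB, with 1, 0 and 2 members at an unadjusted p under 0.05. GMP markers summed to 22.97 to 32.29 UMIs per 10000 in these cells in NTB mice, 41.2 to 41.6 in vehicle mice and 35.7 to 41.9 in BRQ mice, and their part in the Cebpd values was not tested.

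**Figure D5:**
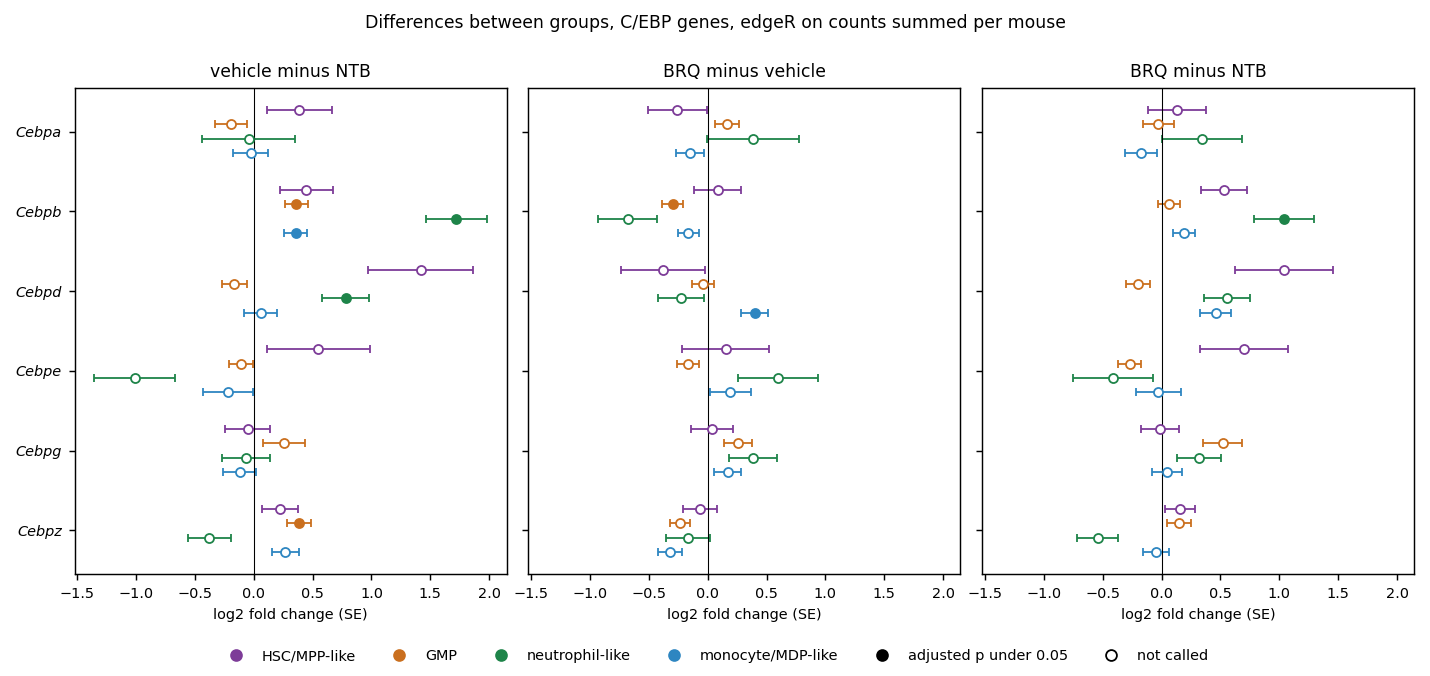
Log2 fold changes of the 6 C/EBP genes with their SE on the x axis and the genes on the y axis, by comparison (panels) and cell type (colors), from edgeR on counts summed per mouse; filled points have an adjusted p under 0.05. Cebpb in neutrophil-like cells has the highest value (1.72) for vehicle against NTB, and 5, 2 and 1 of 24 points are filled in the panels from left to right.

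Whether a difference between groups was itself different between cell types was tested with limma on the per-mouse difference of log2 CPM. For vehicle against NTB, 4 of 6 members differed between neutrophil-like cells and GMPs, beside 18.8% of 8328 genes, whose median was -0.13. The difference in neutrophil-like cells exceeded that in GMPs by 1.33 ± 0.24 for Cebpb (adjusted p = 0.00355) and by 0.93 ± 0.21 for Cebpd (adjusted p = 0.0114), and was lower by a value of -1.05 ± 0.27 for Cebpe (adjusted p = 0.0188) and -0.81 ± 0.20 for Cebpz (adjusted p = 0.0181). When only the immature clusters were set against GMPs, a comparison added after the shares of these clusters were seen, none of the 4 passed, with 0.19 for Cebpb (adjusted p = 0.60), 0.45 for Cebpd (0.174), 0.13 for Cebpe (0.597) and -0.65 for Cebpz (0.17). The vehicle mouse of pool 2 was left out there for its low number of immature cells. With all neutrophil-like cells, the difference from GMPs passed for Cebpb without any 1 mouse. That of Cebpd was lost without the NTB (0.87, adjusted p = 0.0523) or vehicle mouse of pool 3 (0.73, 0.0509). That of Cebpe was lost without any 1 NTB mouse or the vehicle mouse of pool 2 or 3 (-1.08 to -0.79, adjusted p of 0.057 to 0.0743), and that of Cebpz when the pool 1 or pool 2 NTB mouse or the pool 3 vehicle mouse was left out (-0.81 to -0.72, adjusted p of 0.0535 to 0.0704). For BRQ against vehicle limma called no member, beside 0.012%, with 1 at an unadjusted p under 0.05, and for BRQ against NTB none, beside 1.51%, with 3 at an unadjusted p under 0.05.

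Between monocyte/MDP-like cells and GMPs, Cebpd differed for BRQ against NTB by 0.67 ± 0.12 (adjusted p = 0.0104), with 1 of 6 members called, beside 0.648% of 9263 genes. The call was lost without the BRQ mouse of pool 1, 2 or 3 (0.68, 0.62 and 0.71, adjusted p = 0.0603, 0.0942 and 0.0548). For vehicle against NTB limma called none, beside 0.27%, and for BRQ against vehicle none, beside 0.151%, with 1 and 2 members at an unadjusted p under 0.05. The Cebpb difference of vehicle from NTB was 0.36 in either type, with -0.00094 ± 0.093 between them (adjusted p = 0.998).

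The genes around the C/EBP factors in GMPs were read from 4 lists, chosen with earlier results of these data known. Of 15 tested partners and regulators, 1 rose and 2 fell in vehicle against NTB mice (median log2 fold change -0.018, all genes -0.014), beside 11.3% of all genes called. Without the pool 3 NTB mouse none fell, and with cells thinned to 2000 UMIs or in GMPs of cluster 1 alone edgeR called none in either direction. Atf4, the dimer partner of C/EBPγ and driver of the amino acid response, was at 100.02 ± 1.76 CPM (SD, n = 3) in NTB, 145 ± 7.65 CPM in vehicle and 99.2 ± 11.9 CPM in BRQ mice, rising by 0.53 ± 0.10 (adjusted p = 0.00195) and falling by 0.54 ± 0.088 with BRQ (adjusted p = 0.000243). Runx1, a hematopoietic factor that acts upstream of Cebpa, fell by 0.42 ± 0.10 in vehicle mice (adjusted p = 0.0117). Id2, an inhibitor of helix-loop-helix factors, fell from 30.1 ± 6.72 CPM to 19.5 ± 2.52 CPM in vehicle mice (adjusted p = 0.0182) and was at 13.7 ± 1.23 CPM in BRQ mice (adjusted p = 0.0118 against vehicle). Myb, a factor of progenitor proliferation, was at 605 ± 18.2 CPM in vehicle and 869 ± 36.9 CPM in BRQ mice, a rise of 0.52 ± 0.081 (adjusted p = 0.000146). Ddit3, which encodes the C/EBP homologous protein CHOP, was at 9.2 ± 5.42, 7.12 ± 0.438 and 9.48 ± 0.068 CPM in the NTB, vehicle and BRQ mice (adjusted p of 0.131 to 0.954). For BRQ against vehicle 2 rose and 2 fell, beside 13.4% of all genes called, and against NTB 1 rose and 1 fell, beside 6.01%.

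Of 12 tested ATF4 response genes, 7 rose and 0 fell in vehicle against NTB mice (median 0.51), beside 11.3% of all genes called, and 0 rose and 6 fell in BRQ against vehicle mice (median -0.32, all genes 0.001), beside 13.4%. Slc7a5, an amino acid transporter, rose by 1.00 ± 0.24 (adjusted p = 0.0098), Mthfd2, of mitochondrial folate metabolism, by 0.76 ± 0.18 (adjusted p = 0.00844) and Psat1, of serine synthesis, by 0.71 ± 0.15 (adjusted p = 0.00337) in vehicle mice. Atf5 fell by 0.89 ± 0.16 (adjusted p = 0.00048), Slc3a2, the partner chain of Slc7a5, by 0.55 ± 0.13 (adjusted p = 0.0068) and Asns, asparagine synthetase, by 0.50 ± 0.12 (adjusted p = 0.00844) with BRQ. In BRQ against NTB mice, where 6.01% of all genes were called, 1 of 12 rose, Psat1 (0.57 ± 0.15, adjusted p = 0.0204), and 4 with the pool as a block. The median of the list in that comparison was 0.40, beside -0.003 over all genes. Over the alternative settings, 0 to 11 of these genes rose in vehicle mice and 0 to 7 fell with BRQ, and none did with cells thinned to 2000 UMIs except 1 that fell with BRQ. The rise was down to 1 gene without the NTB mouse of pool 2 or 3 and 3 without the vehicle mouse of pool 1, and the fall to 2 without the vehicle mouse of pool 1 and 3 without the BRQ mouse of pool 1.

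Of 12 tested genes of G-CSF and STAT3 signaling, which acts on Cebpb and Cebpd, 4 rose and 1 fell in GMPs of vehicle against NTB mice (median 0.24), beside 11.3% of all genes called. Pim1, a kinase gene induced by STATs, was at 54.2 ± 13.3 CPM in NTB, 129 ± 27.3 CPM in vehicle and 127 ± 71.5 CPM in BRQ mice (1.23 ± 0.29, adjusted p = 0.00775, in vehicle mice, and 1.17 ± 0.29, adjusted p = 0.0153, in BRQ mice, both against NTB). Bcl3, a cofactor of NF-κB, rose by 1.11 ± 0.32 (adjusted p = 0.0273) and Csf2rb, the common β chain of the GM-CSF receptor, by 0.97 ± 0.26 (adjusted p = 0.0183) in vehicle mice. Without 1 mouse 0 to 4 rose, with 0 without the NTB mouse of pool 2, 1 without that of pool 1 or 3 and 2 without the vehicle mouse of pool 1, and 1 rose with cells thinned to 2000 UMIs. For BRQ against vehicle 2 of 12 rose and 0 fell, beside 13.4% of all genes called, Il6ra, the IL-6 receptor (0.90 ± 0.21, adjusted p = 0.00478), and Stat3 itself (0.28 ± 0.088, adjusted p = 0.0346). Against NTB, 2 rose and 1 fell with BRQ, beside 6.01%, Pim1, Csf2rb (0.90 ± 0.25, adjusted p = 0.037) and Csf2ra, the α chain of the GM-CSF receptor (-0.50 ± 0.099, adjusted p = 0.00366). No gene of the list rose in BRQ against NTB mice with DESeq2 or when the pool 1 or the pool 2 NTB mouse was left out. With the pool as a block, 5 rose and 2 fell in vehicle against NTB, 2 rose and 3 fell in BRQ against vehicle and 3 rose and 1 fell in BRQ against NTB mice. In BRQ against vehicle mice 3 also fell over all cells of GMP-like clusters, and 5 when the pool 3 BRQ mouse was left out.

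Of 16 tested granule genes that need C/EBP factors, 1 rose and 8 fell in vehicle against NTB mice (median -0.40), 3 rose and 3 fell in BRQ against vehicle mice (median 0.14) and 1 rose and 6 fell in BRQ against NTB mice (median -0.44), beside 11.3%, 13.4% and 6.01% of all genes called. All but Padi4 are also GMP or neutrophil markers. Leaving out 1 mouse, 3 to 9 fell in vehicle against NTB mice, with 4 and 3 when the pool 1 and the pool 2 NTB mouse was left out and 3 for either the pool 2 or the pool 3 vehicle mouse. In BRQ against NTB mice 6 to 8 then fell. With the pool as a block, 10 fell in BRQ against NTB and 6 in BRQ against vehicle mice. Camp, the cathelicidin of secondary granules, was at 2255 ± 290.4 CPM in NTB, 881 ± 500.2 CPM in vehicle and 523 ± 356 CPM in BRQ mice (-1.34 ± 0.34, adjusted p = 0.0117, and -2.11 ± 0.34, adjusted p = 0.000812, against NTB). Ltf, lactoferrin, fell by 1.42 ± 0.17 in vehicle (adjusted p = 1.58e-05) and by 1.26 ± 0.16 in BRQ mice (adjusted p = 6.51e-05). Chil3, a chitinase-like secreted protein, fell from 74.3 ± 24.7 to 22.1 ± 4.82 CPM in vehicle mice (adjusted p = 8.68e-05) and was at 60.3 ± 19.3 CPM in BRQ mice (1.42 ± 0.19 against vehicle, adjusted p = 3.13e-05). Mmp8, the neutrophil collagenase, rose by 1.34 ± 0.29 (adjusted p = 0.00341) and Padi4, which citrullinates histones, by 1.02 ± 0.31 (adjusted p = 0.0317) in BRQ against vehicle mice.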

How the data were processed

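Bone marrow of 9 mice was sequenced in 3 pools with hashtag antibodies. The deposited files hold UMI counts per cell and gene, which the authors made with Cell Ranger 6.0.0 on mm10 (the submitters' processing notes also name Seurat), and hashtag counts; no normalization had been applied and 0 sample columns were left unused. Hashtags were called with HTODemux (Seurat 5.3.0, quantile 0.99), keeping singlets with at most 15% mitochondrial UMIs and 500 to 7500 genes. Doublets beyond hashtag doublets were kept, and Scrublet calls were an alternative. Cells were clustered with scanpy 1.11.5 (2000 variable genes without the members, 30 principal components, 20 neighbours, Leiden resolution 0.8, giving 21 clusters, 4 of them unnamed). Clusters were named from marker lists, and GMPs were taken out of the other types.

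UMIs were summed per mouse and type (at least 20 cells) and tested over all genes with edgeR 4.0.16 (TMM, filterByExpr, quasi-likelihood, all 9 mice in 1 fit) in R 4.3.3, with Benjamini-Hochberg adjustment over all genes at 0.05. Differences of effects used limma 3.58.1 on log2 CPM (prior count 1), and ratios used two-sided exact permutation tests. DESeq2 1.42.0 was an alternative. Scripts were tested on simulated data. P-values measure the spread between these mice. Depths and shares were not tested and vary between mice, and the shares of cells with a UMI pool the cells of all mice.

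The members and gene lists were chosen with earlier results of these data known. Named were the 6 members, up to 3 called genes of each list and comparison in GMPs by size of change, Ddit3, and the 3 genes most like each member at a mean of at least 20 CPM. Mice of a pool shared a lane: deviations from group means correlated within pools with a median r of 0.028 to 0.11 (lowest -0.086), against -0.077 to -0.014 between pools. The fit with the pool as a block is therefore printed where it changes the call of a member or moves the count of a list by over 1.5 times.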

Additional observations from a re-analysis of the deposited data

Results flagged for a closer look

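In 5 of 36 tests a member's difference between groups itself differed between cell types. These tests used limma on per-mouse differences of log2 CPM, with Benjamini-Hochberg adjustment over all genes. For vehicle against NTB, neutrophil-like cells minus GMPs gave 1.33 for Cebpb, 0.93 for Cebpd, -1.05 for Cebpe and -0.81 for Cebpz. In that comparison 18.8% of all 8328 genes were called. For BRQ against NTB, monocyte/MDP-like cells minus GMPs gave 0.67 for Cebpd, beside 0.648% of 9263 genes called. The 4 neutrophil values ran beside the shares of immature cells given above, and with immature clusters alone, where 1 vehicle mouse was left out, they were 0.19, 0.45, 0.13 and -0.65 and none passed. The groups of 3 mice were too small to test single mice as outliers.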

How the results depend on the processing

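Of the 24 member tests per comparison, 5, 2 and 1 were called for vehicle against NTB, BRQ against vehicle and BRQ against NTB. The shares of all genes called are given above for each cell type. The first count was 2 at Leiden resolution 1.2, 2 with cells thinned to 2000 UMIs, and 3 with GMPs of cluster 0 or immature neutrophils only; the second was 1 with DESeq2, with tag ratios or with GMPs of cluster 0, and 0 when thinned; the third was 2 without a filter or with an Ms4a3 limit of 2.5, 4 with the limits of 500 and 7500 read as UMIs, and 0 at Leiden resolution 1.2 or in mature neutrophils only. With the pool as a replicate block the counts were 6, 4 and 6, and no call was lost. Leaving out 1 mouse gave 2 to 6, 0 to 2 and 0 to 2 calls: the first fell to 2 without the pool 3 NTB mouse and to 3 without either other NTB mouse or the pool 1 or 2 vehicle mouse, the second to 0 without the pool 1 vehicle or pool 2 BRQ mouse, and the third to 0 without any 1 NTB mouse. The difference of effects was called 3 to 7 times against 5, with 3 without any 1 NTB mouse, and 6 times with a prior count of 5.

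List genes called in GMPs numbered 24, 18 and 13 in the same 3 comparisons, beside 11.3%, 13.4% and 6.01% of all 10331 genes. The 4 lists had 15, 12, 12 and 16 genes tested at the main settings. Shares of all genes called were not taken in GMPs under the other settings, so the counts below have none beside them. The first count was 10 in cluster 0, 4 in cluster 1, 6 when thinned and 2 with UMI limits, and 7 to 27 without 1 mouse (7, 10 and 14 without the pool 2, 3 and 1 NTB mouse, 15 and 14 without the pool 1 and 2 vehicle mouse). The second was 11 with DESeq2, 9 in cluster 1, 6 when thinned, 1 with UMI limits, and 8 to 23 without 1 mouse (8 without the pool 1 vehicle mouse). The third was 20 without a filter, 22 with the pool block, 21 with the lower Ms4a3 limit, 5 in cluster 0, 1 in cluster 1 and 2 with UMI limits, and 9 to 16 without 1 mouse.

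Direction turned for Cebpz in GMPs of vehicle against NTB with UMI limits (-0.008, with 1 vehicle mouse left) and for the Cebpe difference of effects in immature clusters (0.135). Without 1 mouse the log2 ratio of Cebpb to Cebpa differed by 0.391 to 0.661, -0.543 to -0.364 and -0.069 to 0.202 in the 3 comparisons, and that of Cebpe to Cebpa by -0.096 to 0.227, -0.455 to -0.145 and -0.431 to -0.097. In GMPs of cluster 1 the ratio of Cebpb to Cebpa turned to -0.118 for vehicle and -0.63 for BRQ against NTB and that of Cebpe to Cebpa to -0.588 for vehicle against NTB, and in cluster 0 the latter turned to 0.20 for BRQ against NTB. The causes were not tested. Cluster, immature-stage and leave-one-out settings of differences, ratios and lists were chosen after seeing the data. DESeq2 gave no adjusted p for 8 results, which were not counted. No neutrophil-like cluster scored highest on the pre-neutrophil markers, so that stage was not run. Depth limits Cebpa, Cebpg and, in HSC/MPP-like cells, Cebpd, which rest on few UMIs per mouse.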

Other observations

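Genes of G-CSF and STAT3 signaling were also called outside GMPs, and the counts were not compared between cell types. Of 12 tested in neutrophil-like cells, 10 rose and 0 fell in vehicle against NTB mice (median log2 fold change 2.61, all genes -0.062, with 16.7% of all genes called), and 8 rose and 0 fell in BRQ against NTB mice (median 2.08, with 7.08% called). Csf3r, the G-CSF receptor, is also among the markers of mature neutrophils. The share of mature cells differed between these groups, and its part was not tested. In HSC/MPP-like cells 4 of 14 rose in vehicle and 3 of 14 in BRQ mice against NTB, beside 1.06% and 0.86% of all genes called, and in monocyte/MDP-like cells 2 of 12 rose in either, beside 2.87% and 2.86%. Of 14 tested ATF4 response genes, 3 rose and 1 fell in neutrophil-like cells of vehicle against NTB mice, beside 16.7% of all genes called. In monocyte/MDP-like cells of BRQ against vehicle mice 2 of 11 fell, beside 4.87%. Of 16 granule genes, 2 rose and 4 fell in neutrophil-like cells of vehicle against NTB mice, beside 16.7% of all genes called. In BRQ against NTB mice 3 rose and 0 fell, beside 7.08%. Of 15 tested partners and regulators, 5 rose and 2 fell in neutrophil-like cells of vehicle against NTB mice (median -0.10, all genes -0.062), beside 16.7%. In BRQ against NTB mice 2 rose and 0 fell (median 0.044), beside 7.08%. All calls are from edgeR with Benjamini-Hochberg adjustment over all genes.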
